A study of Mus musculus with 12 samples.

Results

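The 9 genes described here belong to the transforming growth factor beta (TGF-beta) pathway: the ligands Tgfb1, Tgfb2 and Tgfb3, the latent ligand carrier Ltbp1, the receptors Tgfbr1 and Tgfbr2, the transducer Smad3, the inhibitor Smad7 and the induced matrix gene Tgfbi. They were taken by symbol, through the Ensembl gene identifiers of the count tables, and are 9 of the 54532 genes counted in each library. All 9 were among the 18537 genes with enough counts to be tested.

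The study sequenced polyA+ RNA of striatal tissue (mouse strain C57BL/6J) and asked what blocking STING, which relays the sensing of cytosolic DNA, with the antagonist SN-011 does to gene expression after ischaemic stroke. Stroke was modelled by transient occlusion of the middle cerebral artery (tMCAO), the vessel that supplies the striatum. The sham group received sham surgery and PBS, the vehicle group tMCAO and PBS, and both the SN011 and the 3d-SN011 group tMCAO and SN-011, with 3 libraries in each of the 4 groups. The label of the 3d-SN011 group does not say what 3d stands for, and no sham or vehicle library carries it, so what 3d stands for cannot be told apart from any other difference between that group and the others. The labels give no dose, age, sex or time of sampling, and do not say whether libraries come from separate animals or from pools; p-values therefore measure the spread between these libraries, which may be technical.

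TGF-beta ligands are made as latent complexes, in which the mature growth factor is held by its propeptide and tethered to the matrix by latent TGF-beta binding proteins such as the product of Ltbp1. Once released, the ligand binds the type II receptor (Tgfbr2), which recruits and phosphorylates the type I receptor (Tgfbr1), which in turn phosphorylates SMAD2 and SMAD3; these enter the nucleus with SMAD4, and SMAD7 is an induced brake on the receptors. In the brain, TGF-beta signalling is needed for the mature identity of microglia, and the pathway is known for its part in glial scar and matrix formation after injury.

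The RefSeq table (GRCm38.p6) held the promoter of 7 of the 9 genes. The 250 bases upstream of the start are shown for the ligand and receptor genes that were higher together in the 3d-SN011 libraries (Tgfb1, Tgfbr1, Tgfbr2), for Smad3, which was lower there, and for Tgfb2, whose difference did not pass the test. Each is written 5′ to 3′ on the strand of its gene, with the core SMAD binding motif CAGAC, or its reverse complement GTCTG, in capitals.
Tgfb1 (chr7:25686752-25687001, plus strand): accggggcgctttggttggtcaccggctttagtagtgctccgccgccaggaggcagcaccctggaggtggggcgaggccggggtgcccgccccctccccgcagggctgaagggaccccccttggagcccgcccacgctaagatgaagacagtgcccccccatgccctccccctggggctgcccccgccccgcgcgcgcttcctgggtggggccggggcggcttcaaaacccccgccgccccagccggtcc
Tgfbr1 (chr4:47352972-47353221, plus strand): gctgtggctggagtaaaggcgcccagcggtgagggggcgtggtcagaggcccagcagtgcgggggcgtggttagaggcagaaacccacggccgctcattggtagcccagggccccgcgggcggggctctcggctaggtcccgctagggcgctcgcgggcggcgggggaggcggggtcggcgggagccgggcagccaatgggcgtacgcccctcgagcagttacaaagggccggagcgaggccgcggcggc
Tgfbr2 (chr9:116175364-116175613, minus strand): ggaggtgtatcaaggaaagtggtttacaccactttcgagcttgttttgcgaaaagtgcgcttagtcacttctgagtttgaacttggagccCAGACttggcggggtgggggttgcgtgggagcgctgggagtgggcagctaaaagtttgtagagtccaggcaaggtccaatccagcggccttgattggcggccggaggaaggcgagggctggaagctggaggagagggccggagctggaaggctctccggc
Smad3 (chr9:63757995-63758244, minus strand): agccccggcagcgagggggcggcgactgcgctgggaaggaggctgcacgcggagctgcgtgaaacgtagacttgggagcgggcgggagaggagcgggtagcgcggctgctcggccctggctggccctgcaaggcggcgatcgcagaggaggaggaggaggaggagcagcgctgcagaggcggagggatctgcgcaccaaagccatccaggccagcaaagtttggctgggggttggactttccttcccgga
Tgfb2 (chr1:186705990-186706239, minus strand): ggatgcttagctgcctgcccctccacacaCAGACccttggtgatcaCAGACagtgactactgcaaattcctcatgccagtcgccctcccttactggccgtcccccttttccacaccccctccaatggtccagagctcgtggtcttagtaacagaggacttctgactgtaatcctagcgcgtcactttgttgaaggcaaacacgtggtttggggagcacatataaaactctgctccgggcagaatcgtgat
The CAGAC motif, searched on both strands, was found 0 times upstream of Tgfb1, Tgfbr1 and Smad3, 1 time upstream of Tgfbr2 and of Ltbp1, and 2 times upstream of Tgfb2 and of Tgfbi; 42.2% of the 32851 promoters of the table hold it. The longer palindrome GTCTAGAC, present in 0.167% of them, and the AP-1 motif TGANTCA, present in 6.75%, were found in none of the 7 windows. A GC box, GGGCGG on either strand, is present in 32.7% of all promoters; it was found 5 times upstream of Tgfb1, 2 times each upstream of Tgfbr1 and Smad3, 1 time upstream of Tgfbi and 0 times upstream of Tgfb2, Tgfbr2 and Ltbp1. The windows of Tgfb1 and Tgfbr1 were 75.2% and 74.8% G and C, that of Smad3 69.2%, and those of Tgfbr2 and Tgfb2 58.4% and 53.6%. These are matches of letters in one window per gene, and none of the motifs searched was found in all of Tgfb1, Tgfbr1 and Tgfbr2. The RefSeq start lies 3 bases from the annotated gene start for Tgfbr2, 39 for Ltbp1 and 63 for Tgfbi. For Tgfbr2 and Ltbp1 it matched the first bases of no annotated transcript, and the Tgfbi window runs 63 bases into the annotated gene.

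Libraries held between 15806076 and 18622053 counts. Levels below are CPM, the read count of a gene relative to the counted reads of all tested genes in its library. They are scaled by the trimmed mean of M values (TMM), and values for a group are listed in the order of replicates 1, 2 and 3. The dissected tissue carried the markers of striatal projection neurons in every library, with 10 of 10 genes detected and summed levels of 9058 to 9714 CPM in sham, 9254 to 9669 CPM in vehicle and 5341 to 9554 CPM in SN011. In the 3d-SN011 libraries the same sum was 373, 1541 and 2261 CPM, and all 10 markers were lower than in vehicle. Markers of microglia and macrophages (7 genes, among them Cx3cr1, Csf1r and Itgam) summed to 305 to 344 CPM in sham, 279 to 346 CPM in vehicle, 401 to 1334 CPM in SN011 and 2392 to 3589 CPM in 3d-SN011, with 7 of 7 higher than in vehicle in the last group. In whole tissue, fewer cells of a type and less RNA per cell cannot be told apart, and the part of cell makeup in the results below was not tested. SN011 replicate 3 stood apart from the other SN011 libraries, with 1334 CPM of microglia and macrophage markers against 530 and 401 CPM and with 5341 CPM of projection neuron markers against 8742 and 9554 CPM, so results that rest on it are also given without it.

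Every TGF-beta gene that passed the test did so in a comparison with the 3d-SN011 group. Against vehicle, 6 of the 9 genes were higher in 3d-SN011 (Tgfb1, Tgfb3, Ltbp1, Tgfbr1, Tgfbr2 and Tgfbi) and 1 was lower (Smad3), by edgeR's quasi-likelihood test at an adjusted p under 0.05. In that comparison 28.9% of all genes tested were called higher and 28.2% lower. Against sham, the same count was 6 higher and 1 lower, where 29.8% and 27.9% of all genes were called. Against SN011, 4 genes were higher (Tgfb1, Tgfbr1, Tgfbr2 and Tgfbi) and Smad3 was lower, beside 23.6% and 22.9% of all genes. The median log2 fold change of the 9 genes was 1.69, 1.07 and 0.68 in these comparisons, against 0.0093, 0.0102 and 0.0283 for all genes tested. Scaling by TMM takes most genes as unchanged and so holds the all-gene median near 0, which is thus no independent background. Against vehicle, though, 28.9% of genes were called higher and 28.2% lower. The comparisons with vehicle, sham and SN011 share the 3d-SN011 libraries, so they are not independent of one another.

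Neither occlusion with vehicle nor the SN011 group gave a called TGF-beta gene. In vehicle against sham, 0 of 9 were called at the adjusted threshold and 0 had an unadjusted p under 0.05; DESeq2 and limma also called 0, and 0% of all genes tested were called in either direction. In SN011 against vehicle, 0 of 9 were called, beside 0.0162% of all genes; 4 had an unadjusted p under 0.05 (Tgfb1, Ltbp1, Tgfbr2 and Tgfbi), and DESeq2 called 2 and limma 1. In SN011 against sham, 0 of 9 were called, beside 0.113% of all genes; 3 had an unadjusted p under 0.05 (Tgfb1, Tgfbr1 and Tgfbr2), and DESeq2 called 1 and limma 2. The median log2 fold change of the 9 genes was -0.04, 0.44 and 0.39 in these comparisons, against 0.0051, -0.0077 and 0.001 for all genes. The groups did not overlap, meaning that every library of one lay above or below every library of the other, for 2 of the 9 genes in vehicle against sham (13.2% of all genes), for 3 in SN011 against vehicle (16.3%) and for 5 in SN011 against sham (25.6%). For 3d-SN011 they did not overlap for 7 of 9 genes against vehicle, 8 of 9 against sham and 5 of 9 against SN011, beside 59.4%, 63.3% and 50.3% of all genes. The SN011 comparisons with vehicle and with sham share the SN011 libraries.

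**Figure D1:**
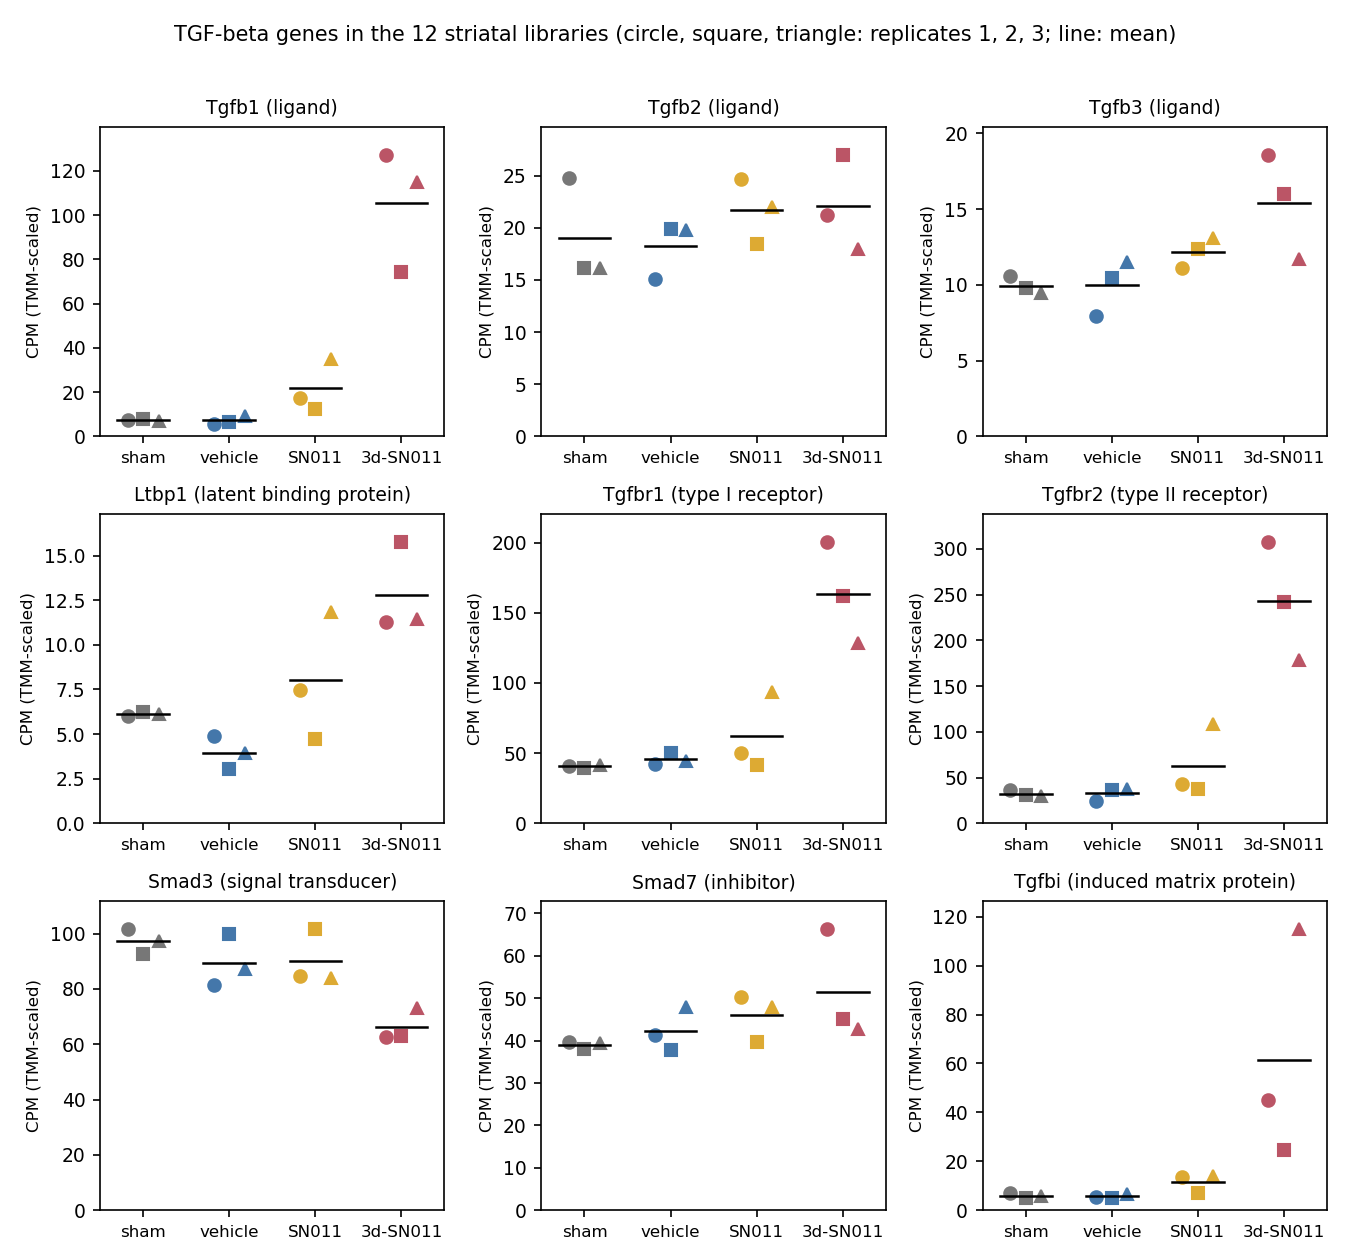
Level of each of the 9 TGF-beta genes in every library, in TMM-scaled CPM on a linear axis from 0; symbols mark replicates 1 to 3 and the line the group mean. Tgfb1, Tgfbr1, Tgfbr2 and Tgfbi sit highest in the 3 libraries of 3d-SN011, Smad3 sits lowest there, and Tgfb2 overlaps between all groups.

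Tgfb1 (chr7:25687002-25705077, plus strand, a protein-coding gene, as are all 9) encodes the ligand most associated with microglia and with blood-derived cells. It stood at 7.52, 7.76 and 6.83 CPM in sham and at 5.81, 6.51 and 9.27 CPM in vehicle. It stood at 17.5, 12.5 and 34.9 CPM in SN011 and at 127, 74.1 and 115 CPM in 3d-SN011. Sham and vehicle overlapped, every SN011 library lay above every sham and vehicle library, and every 3d-SN011 library lay above every SN011 library. The 3d-SN011 group was 14.7-fold higher than vehicle (log2 fold change 3.87, SE 0.35, adjusted p = 1.2e-05), 14.3-fold higher than sham (adjusted p = 1.1e-05) and 4.87-fold higher than SN011 (log2 fold change 2.28, SE 0.32, adjusted p = 0.000253). In SN011, Tgfb1 had a fitted log2 fold change of 1.59 (SE 0.34) against vehicle, which did not pass (adjusted p = 0.149), and of 1.55 (SE 0.33) against sham (adjusted p = 0.0744). Both did pass with DESeq2 (adjusted p = 0.00121 and 0.000758) and with limma's voom and sample weights (0.0156 and 0.00643), so the call in SN011 depends on the test. Without SN011 replicate 3 the log2 fold changes were 1.06 against vehicle (adjusted p = 0.376) and 1.03 against sham (adjusted p = 0.207), and that of 3d-SN011 against SN011 was 2.81 (adjusted p = 9.6e-06).

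Tgfb2 (chr1:186622792-186705989, minus strand), a ligand with roles in development and in neurons and glia, showed no such step. Its levels were 24.8, 16.1 and 16.1 CPM in sham, 15.1, 19.9 and 19.8 CPM in vehicle, 24.7, 18.5 and 22.0 CPM in SN011 and 21.2, 27.0 and 17.9 CPM in 3d-SN011. All 4 groups overlapped, and the fitted log2 fold change of 3d-SN011 was 0.27 (SE 0.21, adjusted p = 0.284) against vehicle and 0.02 (SE 0.21, adjusted p = 0.941) against SN011. An antisense gene, Gm29491, lies over Tgfb2, but it held only 0 to 5 counts in any library. Summed choroid plexus markers (5 genes) were 2511, 1217 and 105 CPM in sham and 1323, 2703 and 2136 CPM in vehicle. They were 3003, 1037 and 2492 CPM in SN011 and 113, 775 and 34.1 CPM in 3d-SN011. In each group Tgfb2 was highest in the library with the highest sum. These markers were set beside Tgfb2 after their values were seen, and their part in its level was not tested.

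Tgfb3 (chr12:86056745-86079041, minus strand), the third ligand of the family, differed less than Tgfb1. It was at 10.6, 9.82 and 9.44 CPM in sham, 7.93, 10.5 and 11.5 CPM in vehicle, 11.1, 12.4 and 13.1 CPM in SN011 and 18.6, 16.0 and 11.7 CPM in 3d-SN011. Every 3d-SN011 library lay above every sham and vehicle library, by 0.17 CPM at the closest for vehicle, and overlapped with SN011. The gene was 1.55-fold higher in 3d-SN011 than in vehicle (log2 fold change 0.63, SE 0.19, adjusted p = 0.0146) and than in sham (adjusted p = 0.0138). That call rests on single libraries: against vehicle it was lost without 3d-SN011 replicate 1 (adjusted p = 0.0683) or vehicle replicate 1 (0.0746), and against sham without 3d-SN011 replicate 1 (0.0647) or sham replicate 3 (0.0510). It was also lost against vehicle when only the 6 libraries compared were fitted (adjusted p = 0.0622). Against SN011 the log2 fold change was 0.34 (SE 0.19, adjusted p = 0.167). Overlapping genes Gm37804 and Gm48008 held at most 2 and 3 counts.

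Put on a scale per kilobase of exon, so that the 3 ligands can be compared with each other, the mixture of ligand transcripts differed between groups. The length used joins the exons of all annotated transcripts of a gene, and may differ from that of the transcripts present. Shares and orders between genes on this scale depend on it. Tgfb1 made up 19.2% ± 2.28 (SD, n = 3) of the summed ligand level in sham and 18.9% ± 2.37 in vehicle, with Tgfb2 at 42.3% in sham and 39.4% to 43.9% over the vehicle libraries, and Tgfb3 at 38.5% and 39.1%. In SN011 the share of Tgfb1 was 31.5%, 26.6% and 47.5% in the 3 replicates, and in 3d-SN011 it was 73.4%, 61.0% and 77.7%. Every SN011 share lay above every vehicle and sham share, and every 3d-SN011 share above every SN011 share. The summed ligand level was 7.68 CPM per kb in sham, 7.53 in vehicle, 11.6 in SN011 and 29.3 in 3d-SN011. A two-sided exact permutation test gave p = 0.1 for the Tgfb1 share of 3d-SN011 against vehicle, sham or SN011 and of SN011 against vehicle or sham, and p = 0.7 for vehicle against sham (n = 3 per group). With 3 libraries against 3, 0.1 is the smallest p the test can give, so these differences cannot pass 0.05; over the 12 ratio tests made, the adjusted value of that p was 0.133.

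**Figure D2:**
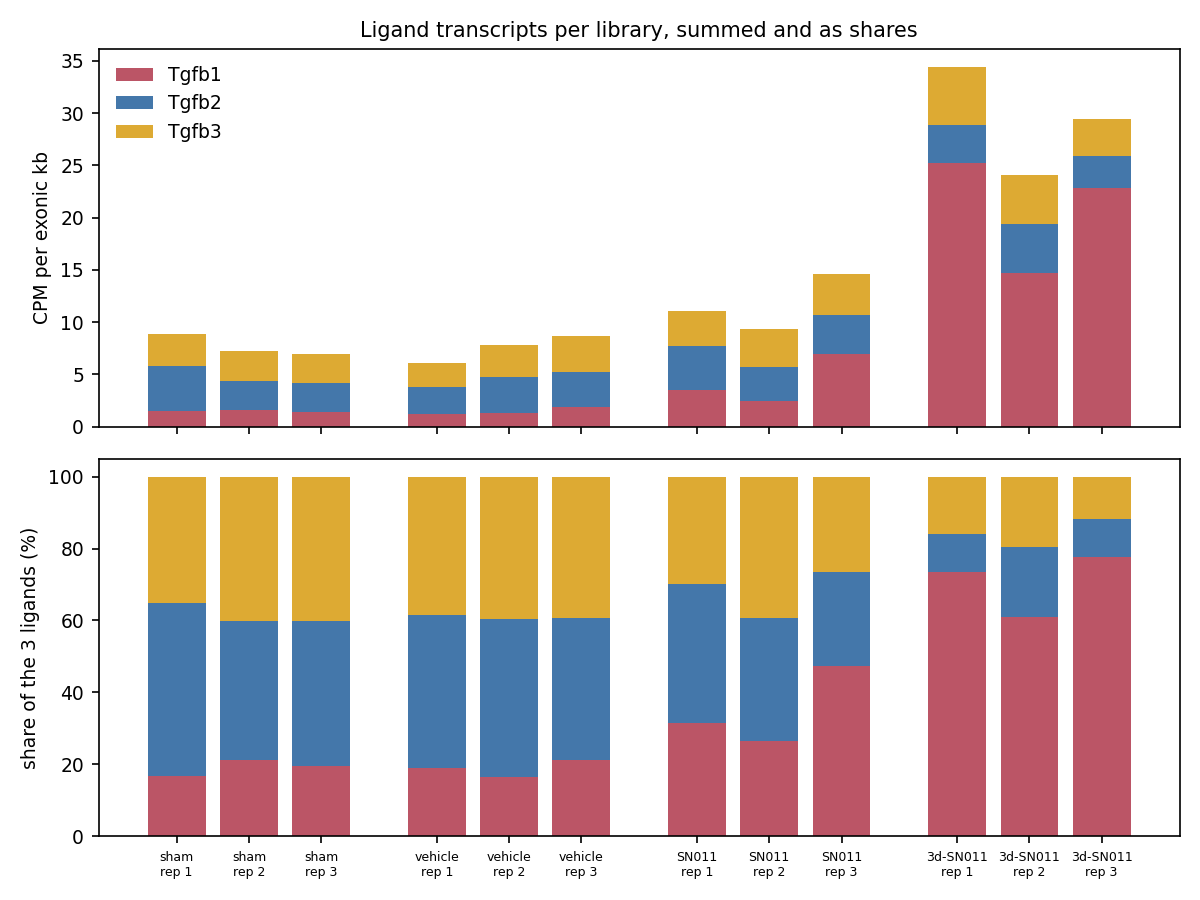
Ligand transcripts in each library, as CPM per kilobase of exon stacked over Tgfb1, Tgfb2 and Tgfb3 (top) and as the share of each in their sum (bottom, percent). The Tgfb1 share is between 16.5% and 21.3% in the 6 sham and vehicle libraries and between 61.0% and 77.7% in the 3d-SN011 libraries.

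Ltbp1 (chr17:75005568-75392512, plus strand), which encodes a matrix protein that binds latent TGF-beta, was the only member to sit lower in every vehicle library than in every sham library while also being higher in 3d-SN011. Its levels were 6.01, 6.24 and 6.11 CPM in sham, 4.87, 3.06 and 3.93 CPM in vehicle, 7.45, 4.74 and 11.8 CPM in SN011 and 11.3, 15.8 and 11.4 CPM in 3d-SN011. The vehicle counts were the lowest of any member, down to 47 in 1 library. The difference between vehicle and sham had a log2 fold change of -0.63 (SE 0.30) and an adjusted p of 1. In 3d-SN011, Ltbp1 was 3.24-fold higher than in vehicle (log2 fold change 1.69, SE 0.30, adjusted p = 0.000414) and 2.09-fold higher than in sham (1.07, SE 0.29, adjusted p = 0.0074). Against SN011 its log2 fold change was 0.68 (SE 0.29, adjusted p = 0.0705), and it passed with DESeq2 (adjusted p = 0.0495), with limma voom (0.0133) and without SN011 replicate 3 (log2 fold change 1.07, adjusted p = 0.00575). SN011 against vehicle gave a log2 fold change of 1.02 (SE 0.30, adjusted p = 0.212). It passed with DESeq2 (adjusted p = 0.0480), with no filter (0.0433) and without SN011 replicate 2 (log2 fold change 1.28, adjusted p = 0.0302), and was 0.62 without replicate 3, so this call too depends on the processing.

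Of 10 other genes of latency and activation, 9 were tested, and 6 were higher and 0 lower in 3d-SN011 than in vehicle, with a median log2 fold change of 1.17 over the 9, beside 28.9% and 28.2% of all genes and an all-gene median of 0.0093. Nrros, which tethers latent TGF-beta on microglia and macrophages, went from 5.40 ± 1.86 CPM in vehicle (SD, n = 3) to 39.7 ± 11.7 CPM in 3d-SN011 (log2 fold change 2.88, SE 0.34, adjusted p = 2.7e-05). Ltbp3, another latent TGF-beta binding protein, went from 51.0 ± 14.3 to 114.7 ± 13.2 CPM (1.17, SE 0.22, adjusted p = 0.000541). The count was again 6 higher and 0 lower against sham, where 29.8% and 27.9% of all genes were called, and against SN011, where 23.6% and 22.9% were. Nrros was higher by a log2 fold change of 2.83 against sham and 1.95 against SN011 (adjusted p = 2.6e-05 and 0.000558), and Ltbp3 by 1.31 against sham (adjusted p = 0.000235). Furin, the convertase that cleaves the ligand precursor, was higher than in SN011 by 0.80 (SE 0.20, adjusted p = 0.00685), a call that was lost when only the 6 libraries compared were fitted. Itgb6, an epithelial integrin subunit, had too few counts to be tested.

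Both receptors were several times higher in 3d-SN011. Tgfbr2 (chr9:116084293-116175360, minus strand), the type II receptor that binds the ligand first, stood at 36.2, 31.5 and 29.4 CPM in sham, 24.0, 36.5 and 37.5 CPM in vehicle, 42.8, 37.9 and 108.8 CPM in SN011 and 308, 242 and 178 CPM in 3d-SN011. Every SN011 library lay above every sham and vehicle library, but replicate 2 by only 0.39 CPM over the highest vehicle library, and replicate 3 was 2.87 times the lowest of its group. Against vehicle, 3d-SN011 was 7.43-fold higher (log2 fold change 2.89, SE 0.37, adjusted p = 3.8e-05), and against sham 7.50-fold higher (adjusted p = 3.5e-05). Against SN011 it was 3.84-fold higher (1.94, SE 0.35, adjusted p = 0.000875), a log2 fold change that became 2.58 without SN011 replicate 3. SN011 itself did not pass against vehicle (0.95, SE 0.35, adjusted p = 0.319) or sham (0.97, adjusted p = 0.251). Both passed with no filter on low counts (adjusted p = 0.0247 and 0.0175), and the values were 0.31 and 0.32 without replicate 3.

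Tgfbr1 (chr4:47353222-47414931, plus strand), the type I receptor kinase, was at 41.0, 39.2 and 41.4 CPM in sham, 42.4, 49.97 and 44.6 CPM in vehicle, 50.3, 41.8 and 93.8 CPM in SN011 and 201, 162 and 128 CPM in 3d-SN011. Vehicle lay wholly above sham, by 0.92 CPM at the closest, with a log2 fold change of 0.17 (SE 0.25, adjusted p of 1). The 3d-SN011 libraries lay above all others, 3.59-fold over vehicle (log2 fold change 1.84, SE 0.25, adjusted p = 6.7e-05), 4.04-fold over sham (adjusted p = 3.7e-05) and 2.64-fold over SN011 (1.40, SE 0.25, adjusted p = 0.000813). SN011 gave a log2 fold change of 0.44 (SE 0.25, adjusted p = 0.561) against vehicle, which was 0.01 without replicate 3, so the SN011 value for this receptor comes from that library.

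The balance of the receptor transcripts also differed. Per kilobase of exon, the ratio of Tgfbr2 to Tgfbr1 was 0.70, 0.64 and 0.57 in sham and 0.45, 0.58 and 0.67 in vehicle. It was 0.68, 0.72 and 0.93 in SN011 and 1.22, 1.19 and 1.11 in 3d-SN011. By this measure Tgfbr1 was thus the more abundant receptor transcript in every sham, vehicle and SN011 library, and Tgfbr2 in every 3d-SN011 library. In CPM, not divided by length, Tgfbr2 was already the higher in SN011 replicate 3 (108.8 against 93.8 CPM). Which receptor leads in a library therefore depends on the exon lengths used. The exact two-sided permutation p for 3d-SN011 against each other group was 0.1, the smallest possible with 3 against 3 (adjusted 0.133), as it was for SN011 against vehicle; for SN011 against sham it was 0.2 and for vehicle against sham 0.5.

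Of 7 other receptors of the superfamily, 2 were higher and 4 lower in 3d-SN011 than in vehicle, beside 28.9% and 28.2% of all genes, with a median log2 fold change of -0.62. The counts were 2 and 4 against sham (29.8% and 27.9% of all genes) and 1 and 2 against SN011 (23.6% and 22.9%); the number called higher is near the share over all genes. Acvr1b, the type I receptor for activins, fell from 138.9 ± 9.95 CPM in vehicle to 72.5 ± 12.9 CPM (log2 fold change -0.94, SE 0.13, adjusted p = 6.8e-05), and it was lower than in sham by -0.96 (adjusted p = 5.6e-05) and than in SN011 by -0.79 (adjusted p = 0.000532). Bmpr2, the type II receptor for bone morphogenetic proteins, fell from 218.6 ± 30.9 to 130.3 ± 16.7 CPM (-0.75, SE 0.13, adjusted p = 0.000346) and by -0.70 against sham (adjusted p = 0.000527). Eng, an endothelial co-receptor, was higher than in SN011 by 0.82 (SE 0.20, adjusted p = 0.00457), with 47.4 ± 3.20 CPM in SN011 and 83.6 ± 28.5 CPM in 3d-SN011. Summed endothelial markers were 232 to 267 CPM in SN011 and 263 to 413 CPM in 3d-SN011, and their part in the difference in Eng was not tested.

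**Figure D3:**
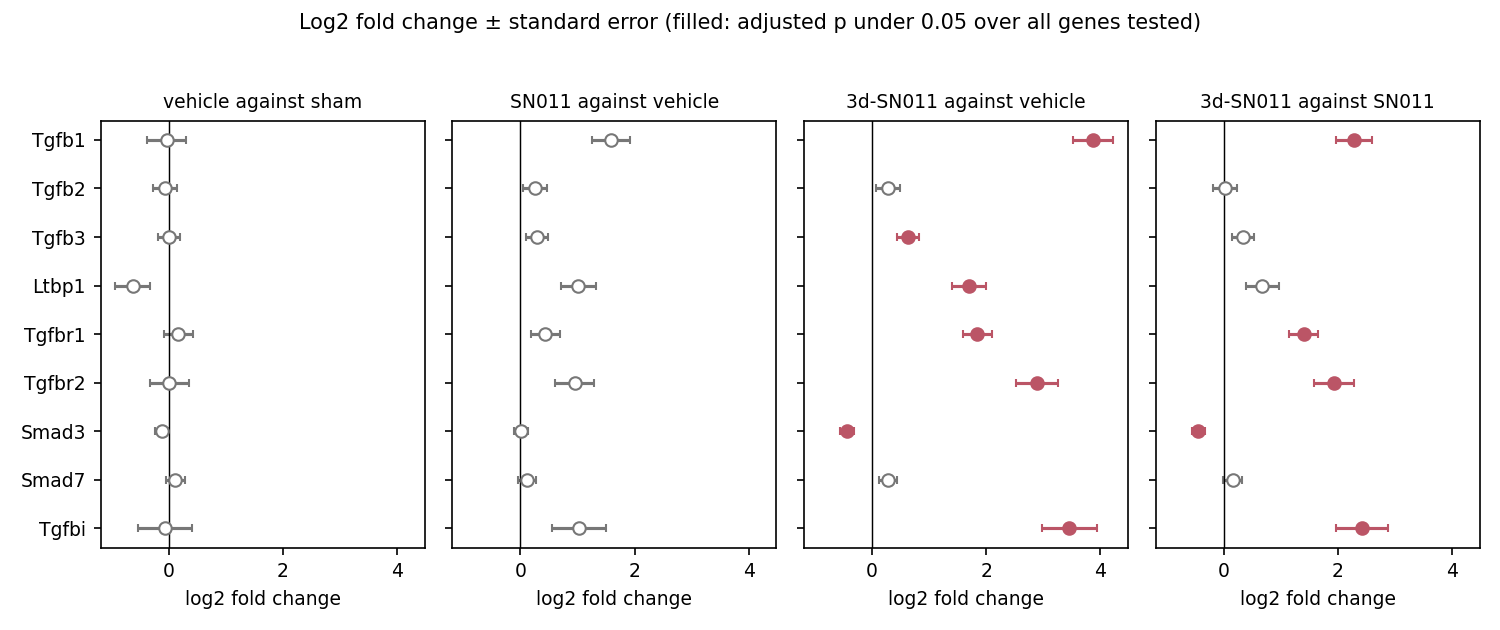
Fitted log2 fold change (x axis) of each of the 9 genes in 4 comparisons, with bars of 1 standard error; filled points passed the adjusted threshold over all genes tested. No point is filled for vehicle against sham or SN011 against vehicle, and 7 are filled for 3d-SN011 against vehicle, from -0.43 for Smad3 to 3.87 for Tgfb1.

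Smad3 (chr9:63646767-63757994, minus strand), which carries the receptor signal to the nucleus, went the other way from the receptors. It stood at 101.7, 92.7 and 97.4 CPM in sham, 81.5, 99.9 and 87.1 CPM in vehicle, 84.8, 101.8 and 84.0 CPM in SN011 and 62.7, 63.0 and 73.1 CPM in 3d-SN011. Sham, vehicle and SN011 overlapped, and all 3 libraries of 3d-SN011 lay below all others. The gene fell by 0.43 on the log2 scale against vehicle (SE 0.12, adjusted p = 0.00699), which is 1.35-fold lower, by 0.55 against sham (SE 0.12, adjusted p = 0.00144) and by 0.44 against SN011 (SE 0.12, adjusted p = 0.00828). Summed neuronal markers fell over the same libraries, from 2230 to 2243 CPM in vehicle to 392, 639 and 878 CPM in 3d-SN011, with 4 of 4 lower; their part in the fall of Smad3 was not tested.

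Among 7 other genes of signal transduction, 3 were higher and 2 lower in 3d-SN011 than in vehicle, with a median log2 fold change of 0.14, beside 28.9% of all genes called higher and 28.2% lower. The counts were 3 and 2 against sham (29.8% and 27.9% of all genes) and 2 and 2 against SN011 (23.6% and 22.9%), and those called lower are near these shares. Smad1, which transduces bone morphogenetic protein signals, rose from 23.9 ± 0.477 CPM in vehicle to 42.5 ± 5.36 CPM (log2 fold change 0.83, SE 0.13, adjusted p = 0.000147), by 1.07 against sham (adjusted p = 2.7e-05) and by 0.88 against SN011 (adjusted p = 0.000282). Zfyve9, the anchor protein that presents SMAD2 and SMAD3 to the receptor, fell from 77.3 ± 7.10 to 36.9 ± 7.83 CPM (-1.07, SE 0.16, adjusted p = 0.000101), with -1.15 against sham (adjusted p = 5.9e-05) and -0.85 against SN011 (adjusted p = 0.000906). Smad3 and its anchor were thus both lower, while Smad1 was higher, in the same libraries.

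Smad7, the inhibitory SMAD that TGF-beta itself induces, was at 39.5, 38.1 and 39.4 CPM in sham, 41.2, 37.8 and 47.9 CPM in vehicle, 50.3, 39.7 and 47.9 CPM in SN011 and 66.4, 45.1 and 42.8 CPM in 3d-SN011. The 3d-SN011 mean of 51.4 CPM rests on replicate 1, and the other two replicates lay within the range of vehicle and SN011. It was not called in any comparison; the log2 fold change of 3d-SN011 was 0.28 (SE 0.16, adjusted p = 0.160) against vehicle, 0.40 (SE 0.16, adjusted p = 0.0529) against sham and 0.16 (SE 0.16, adjusted p = 0.442) against SN011. Against sham, where every 3d-SN011 library lay above every sham library, the value passed with limma (adjusted p = 0.0317).

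Of 10 other inhibitors tested, 4 were higher and 2 lower in 3d-SN011 than in vehicle, beside 28.9% and 28.2% of all genes, with a median log2 fold change of 0.09. The counts were 4 and 2 against sham (29.8% and 27.9% of all genes) and 3 and 2 against SN011 (23.6% and 22.9%), and none of these is far from the share over all genes. The pair with the smallest p were Nedd4l and Skil. Nedd4l, a ubiquitin ligase that acts on activated SMAD2 and SMAD3, fell from 352.8 ± 42.1 CPM in vehicle to 91.2 ± 20.3 CPM (log2 fold change -1.95, SE 0.19, adjusted p = 1.5e-05), by -2.02 against sham and -1.71 against SN011 (adjusted p = 1.1e-05 and 9.2e-05). Skil, a nuclear repressor of SMAD-driven transcription, fell from 168.6 ± 27.1 to 80.5 ± 6.32 CPM (-1.07, SE 0.13, adjusted p = 3.3e-05), by -1.01 against sham and -0.76 against SN011 (adjusted p = 4.4e-05 and 0.000679).

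Tgfbi (chr13:56609523-56639562, plus strand), a secreted matrix protein named for its induction by TGF-beta, showed the widest spread of any member within a group. Its levels were 6.92, 4.97 and 5.69 CPM in sham, 5.25, 4.88 and 6.69 CPM in vehicle, 13.5, 6.90 and 14.0 CPM in SN011 and 44.9, 24.7 and 115 CPM in 3d-SN011. Every 3d-SN011 library lay above every other library, although the highest was 4.66 times the lowest. Tgfbi was 10.96-fold higher in 3d-SN011 than in vehicle (log2 fold change 3.45, SE 0.48, adjusted p = 7.5e-05), 10.5-fold higher than in sham (adjusted p = 7.8e-05) and 5.37-fold higher than in SN011 (2.42, SE 0.45, adjusted p = 0.00109). Without 3d-SN011 replicate 3 the log2 fold changes were 2.63, 2.57 and 1.60, and each was still called. In SN011, the log2 fold change was 1.03 (SE 0.47, adjusted p = 0.442) against vehicle, with SN011 replicate 2 only 0.21 CPM above the highest vehicle library. Against sham it was 0.97 (SE 0.46, adjusted p = 0.409), which passed with limma voom (adjusted p = 0.0472).

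Markers of fibroblasts and meninges (6 genes) were ordered as Tgfbi was over the 3d-SN011 libraries, with 284, 99.6 and 543 CPM in replicates 1, 2 and 3, against 71.6 to 81.5 CPM in vehicle. Of these markers, 5 of 6 were higher than in vehicle and none was at 0. Most of the vehicle sum was Pdgfra (53.0 to 60.1 CPM), which also marks oligodendrocyte precursors. Col1a1, also among the target genes below, ran from 10.3 to 362 CPM in 3d-SN011. Markers of blood-borne monocytes and border macrophages (6 genes) gave 27.2, 13.4 and 37.5 CPM, against 15.5 to 25.1 CPM in vehicle, again highest in replicate 3 and lowest in replicate 2. Of the 5 of these markers tested against vehicle, 3 were higher and 1 was lower, so the sum joins genes that moved opposite ways: Cd163 fell from 16.1 ± 3.30 CPM in vehicle to 2.83 ± 2.08 CPM, and F13a1 rose from 0.941 ± 0.223 to 11.96 ± 9.82 CPM (both named after their values were seen). Neutrophil markers summed to at most 2.67 CPM in any library. The part of these cells in the level of Tgfbi was not tested.

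Of 16 other target genes, 11 were higher and 1 was lower in 3d-SN011 than in vehicle, with a median log2 fold change of 2.56, beside 28.9% and 28.2% of all genes and an all-gene median of 0.0093. The lower gene was Klf10, at 22.2 ± 2.55 CPM in vehicle and 14.7 ± 1.62 CPM in 3d-SN011 (named after its values were seen). Ccn2, Postn, Tagln and Junb were not called. Against sham 10 were higher and 0 lower (29.8% and 27.9% of all genes), and against SN011 11 were higher and 1, again Klf10, was lower (23.6% and 22.9%). Every 3d-SN011 library lay above every SN011 library for 7 of the 16 and below for 1, where 50.3% of all genes did not overlap. In the lowest 3d-SN011 library, Col1a1 was at 10.3 CPM (10.1 to 13.9 CPM in SN011) and Col3a1 at 3.61 CPM (3.81 to 6.43 CPM in SN011). Timp1, an inhibitor of matrix metalloproteinases, rose from 0.679 ± 0.307 CPM in vehicle to 13.4 ± 1.95 CPM (log2 fold change 4.29, SE 0.45, adjusted p = 1.7e-05) and by 4.15 against sham (adjusted p = 1.6e-05). These fold changes start from low counts, 5 to 14 in the vehicle libraries and 9 to 15 in the sham libraries. Fn1, which encodes fibronectin, rose from 47.9 ± 3.49 to 267.9 ± 151 CPM (2.48, SE 0.35, adjusted p = 7.4e-05) and by 1.80 against SN011 (adjusted p = 0.00108). Ccn1, a matricellular protein, rose by 2.77 against sham (SE 0.38, adjusted p = 6.8e-05), from 5.67 ± 1.57 to 38.7 ± 10.7 CPM. Cdkn1a, which encodes the cell cycle inhibitor p21, rose by 2.68 against SN011 (SE 0.50, adjusted p = 0.00101), a value that was 1.62 without 3d-SN011 replicate 3. These genes have other inducers than TGF-beta, and Col1a1 of this list is also a fibroblast marker.

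**Figure D4:**
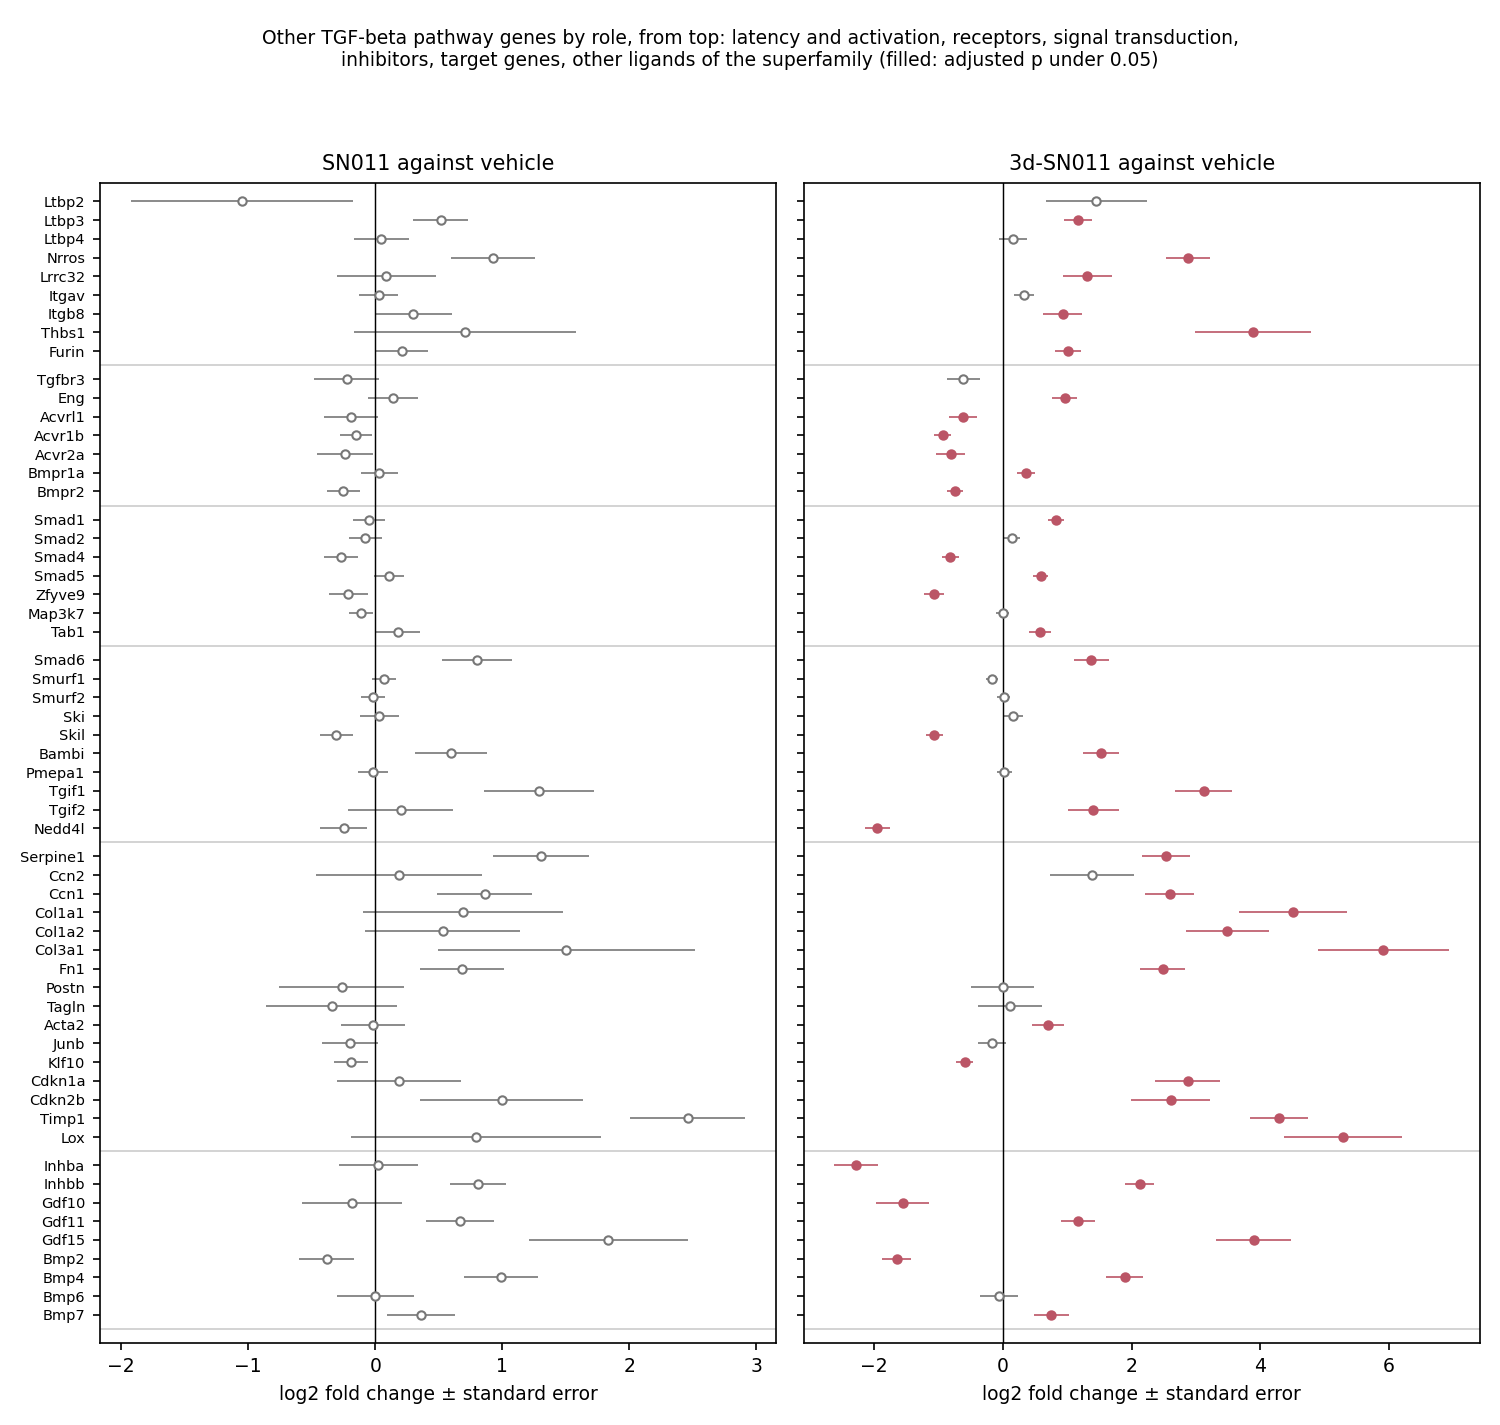
Log2 fold change (x axis, bars of 1 standard error) of the 58 tested genes of the wider pathway list, grouped by role, for SN011 against vehicle (left) and 3d-SN011 against vehicle (right); the x axes differ in range. No gene is filled, that is called, on the left; on the right 31 are called higher and 12 lower, and the target genes have a median of 2.56.

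Among 9 other ligands of the superfamily, 5 were higher and 3 lower in 3d-SN011 than in vehicle, beside 28.9% and 28.2% of all genes. The counts were 5 and 3 against sham (29.8% and 27.9% of all genes) and 3 and 3 against SN011 (23.6% and 22.9%), and those called lower lie near the share over all genes. The activin subunit genes moved apart. Inhbb rose from 3.60 ± 0.440 CPM in vehicle to 15.7 ± 1.76 CPM (log2 fold change 2.12, SE 0.22, adjusted p = 1.6e-05), by 1.98 against sham and 1.32 against SN011 (adjusted p = 1.7e-05 and 0.000472). Inhba fell from 39.9 ± 1.43 CPM in sham to 6.67 ± 4.05 CPM (-2.58, SE 0.34, adjusted p = 4.6e-05) and by -2.31 against SN011 (adjusted p = 0.000286); without 3d-SN011 replicate 2 these values were -3.19 and -2.92. Bmp2, a bone morphogenetic protein, fell from 10.04 ± 0.757 CPM in vehicle to 3.19 ± 0.955 CPM (-1.65, SE 0.23, adjusted p = 6.6e-05).

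Over all roles, 31 of the 58 tested pathway genes were higher and 12 lower in 3d-SN011 than in vehicle, where 28.9% and 28.2% of all genes were. They were 30 and 11 against sham (29.8% and 27.9% of all genes), and 26 and 10 against SN011 (23.6% and 22.9%). The median log2 fold changes of the list were 0.73, 0.57 and 0.49, against 0.0093, 0.0102 and 0.0283 for all genes tested. In vehicle against sham, SN011 against vehicle and SN011 against sham, edgeR called 0 of the 58; an unadjusted p under 0.05 was reached by 3, 12 and 10 of them. DESeq2 called 0, 3 and 3, and limma 0, 6 and 10.

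The order of the members' levels changed with the group. Per kilobase of exon, Smad3 was the most abundant in sham (17.6 CPM per kb), vehicle (16.2) and SN011 (16.3), and Ltbp1 the least in all 4 groups (0.572, 0.370, 0.749 and 1.199). In sham and vehicle, Smad3, Smad7 and Tgfbr1 came first, each apart from the next, followed by Tgfbr2, Tgfb2 and Tgfb3, whose libraries overlapped, then Tgfbi and Tgfb1, which also overlapped, and Ltbp1. In 3d-SN011, Tgfbr2 (29.7 CPM per kb) came first, followed by Tgfbr1 (25.1), Tgfb1 (20.9), Tgfbi (16.3), Smad3 (11.96) and Smad7 (11.4), and neighbours in this order overlapped between libraries. Tgfb3 (4.56) and Tgfb2 (3.81) lay apart below these. On this scale, which depends on the exon lengths used, Tgfb1 thus passed from below Tgfb2 and Tgfb3 in every sham and vehicle library to above both in every 3d-SN011 library. In CPM, not divided by length, Tgfb1 also lay below both in every sham and vehicle library and above both in every 3d-SN011 library.

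The library in which most members were highest differed between groups. In sham, replicate 1 was the highest for 6 of 9 genes, replicate 2 for 2 and replicate 3 for 1, and in vehicle the numbers were 1, 3 and 5. In SN011, replicate 3 was the highest for 6 of 9 genes (Tgfb1, Tgfb3, Ltbp1, Tgfbr1, Tgfbr2 and Tgfbi). In 3d-SN011, replicate 1 was the highest for 5 (Tgfb1, Tgfb3, Tgfbr1, Tgfbr2 and Smad7), replicate 2 for Tgfb2 and Ltbp1, and replicate 3 for Smad3 and Tgfbi. Tgfbr1 and Tgfbr2 were ordered over the 3d-SN011 replicates as the microglia and macrophage markers were, which summed to 3589, 2939 and 2392 CPM, whereas Tgfb1 was lowest in replicate 2. In SN011, Tgfb1 and both receptors were highest in replicate 3 and lowest in replicate 2, as the markers were.

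Set against that marker sum, the members differed. The markers in the sum rose unequally from sham to 3d-SN011, C1qa from 32.5 to 1117 CPM but P2ry12 from 42.9 to 134.7 CPM. The ratios below thus depend on which markers are summed. Tgfbr2 was 10.1% ± 0.549 of the sum in sham (SD, n = 3), 10.8% ± 2.36 in vehicle, 8.56% ± 0.767 in SN011 and 8.09% ± 0.574 in 3d-SN011. Tgfb1 was 2.31% ± 0.204, 2.34% ± 0.326, 3.01% ± 0.355 and 3.63% ± 1.15 in the same order. Tgfbr1 was 12.7% ± 0.743 and 15.2% ± 2.54 in sham and vehicle, but 8.97% ± 1.74 in SN011 and 5.49% ± 0.114 in 3d-SN011. Smad3 went from 30.5% ± 0.951 in sham to 2.32% ± 0.670 in 3d-SN011. From sham to 3d-SN011, the mean ratios of Tgfbr2, Tgfb1, Tgfbr1 and Tgfbi to these markers changed by a smaller factor than their levels. The marker sum was itself higher in 3d-SN011, so any gene that rose far enough would show this. The mean ratio of Tgfbr2, Tgfbr1 and Smad3 was lower in 3d-SN011 than in sham, and that of Tgfb1 was higher. Of the other members, Tgfbi went from 1.83% ± 0.189 in sham to 2.30% ± 2.18 in 3d-SN011. Tgfb2 fell from 5.90% to 0.753%, Tgfb3 from 3.11% to 0.517%, Ltbp1 from 1.92% to 0.443% and Smad7 from 12.2% to 1.72%. The ratios were not tested, and astrocyte markers (5 genes) also stood at 7066 to 11369 CPM in 3d-SN011 against 941 to 1344 CPM in vehicle.

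**Figure D5:**
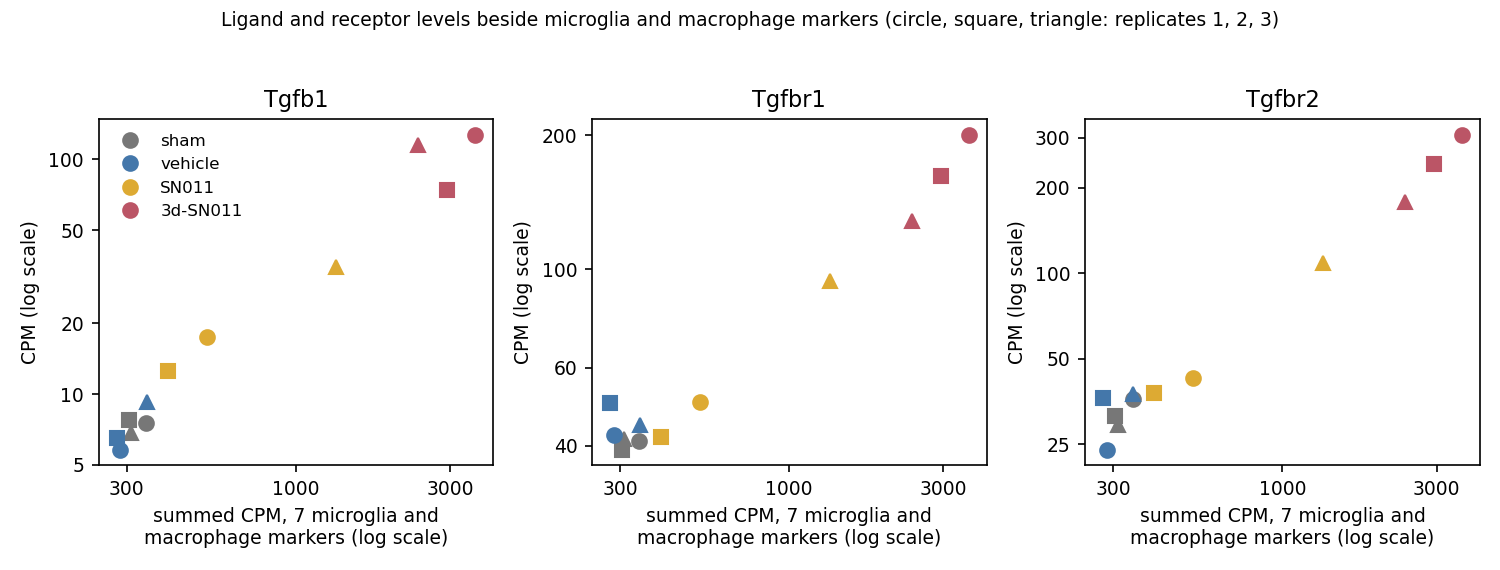
Level of Tgfb1, Tgfbr1 and Tgfbr2 (y axes, CPM) against the summed CPM of 7 microglia and macrophage markers (x axes) in the 12 libraries; all axes are logarithmic, and symbols mark replicates. SN011 replicate 3 (1334 CPM of markers) lies between the other SN011 libraries and the 3d-SN011 libraries in each panel.

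By Pearson correlation of log2 CPM over the 12 libraries, among 14210 candidate genes, the genes most like each member in pattern are given as a description, since the libraries share their groups. For Tgfb1 they were Creg1 (0.997), Lcp1 and Syk, for Tgfbr2 Mavs (0.996), Cd72 and Casp8, and for Tgfbr1 Cbfb (0.994), Tnfaip8 and Smc4. For Tgfbi they were Nudt22 (0.994), Tpst2 and Blvrb, for Ltbp1 they included Mgmt (0.957) and Wipi1, and for Tgfb3 they were Apeh (0.966), Syne2 and Arhgap4. Genes like Smad3 included Pcdhgb6 (0.970) and St8sia3os, and Smad7 was most like Ttc25 (0.916), Tjap1 and Ybx2. Tgfb2 had no gene nearer than Col9a3 (0.845), Ngfr and Sema3b. Among the members themselves, Tgfbr1 and Tgfbr2 were the most alike (0.990), Tgfb1 and Tgfbr2 came next (0.973), and Smad3 was negatively correlated with each of the others, from -0.300 with Tgfb2 to -0.896 with Tgfbr1.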

How the data were processed

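The authors deposited, for each library, a table of whole-number read counts per Ensembl gene; per the submitters' processing notes these came from HISAT2, featureCounts and the mm10 build, with versions, strand setting and annotation not given in the sources used here. Per the labels' protocols, polyA+ libraries were sequenced as read pairs on an Illumina HiSeq. Nothing else is known of the deposited counts, so reads of overlapping antisense genes may be included.

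From these counts, symbols and exonic lengths were taken from GENCODE M21 (GRCm38). Genes were kept by edgeR's filterByExpr with a minimum count of 10, libraries were TMM-scaled, and 1 model by group held the 12 libraries, with edgeR 4.0.16 (quasi-likelihood, R 4.3.3). Every pair of groups was compared, p-values were adjusted by Benjamini and Hochberg over all 18537 genes tested, and a gene was called at an adjusted p under 0.05. Fold changes are model estimates. Ratios between members were tested by exact permutation of libraries. The script was tested on simulated counts.

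The 9 members, the pathway list and the marker lists were chosen with earlier results of these data known. All members are named; of the pathway list, the 2 called genes with the smallest adjusted p in each role and comparison are named, and per member the 3 genes most like it with a mean of at least 1 CPM, leaving out symbols of the Gm and Rik kind. Of these most alike genes, 2 are not reported here. Depth was 15806076 to 18622053 counts per library. No pair of replicates was identical: their counts differed by more than sampling noise in every group. The labels do not say whether replicate numbers pair the libraries, and the main model assumed no pairing. The alternatives were RLE scaling, DESeq2 1.42.0, limma 3.58.1 voom with sample weights, no filter, fits of fewer libraries, a replicate block and leaving out each library.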

Additional observations from a re-analysis of the deposited data

How the results depend on the processing

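Under RLE scaling, DESeq2, limma voom, no filter, fits of fewer libraries, the replicate block and with any 1 library left out, Tgfb1, Tgfbr1, Tgfbr2, Tgfbi and Smad3 kept their direction and their call in all 3 comparisons with 3d-SN011. For Tgfbi against vehicle the log2 fold change without 3d-SN011 replicate 3 was 2.63 in place of 3.45. Counts of called members in those comparisons stayed within 5 to 7 higher against sham, 5 to 6 against vehicle and 4 to 5 against SN011 when libraries were left out, with 1 lower throughout.

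The SN011 results depend on the processing. Against vehicle, the members called higher numbered 2 with DESeq2, 1 with limma voom, 3 with no filter and 0 to 2 with a library left out; against sham they numbered 1, 2, 2 and 0 to 1. Of the pathway list, SN011 against vehicle gave 3 calls with DESeq2, 6 with limma voom, 3 with no filter, 1 without the 3d-SN011 group in the fit and 0 to 4 with a library left out; SN011 against sham gave 3, 10 and 5 with the first 3 of these and 0 to 4 with a library left out. Over all genes, SN011 against vehicle gave 443 calls with DESeq2, 1179 with limma voom, 601 with no filter, 5 in a fit of the 6 libraries compared, 17 without 3d-SN011, and 0 to 513 with a library left out. SN011 against sham gave 638, 1875, 775, 7, 39 and 0 to 694 in the same order. The highest of each range came without SN011 replicate 2, the library closest to vehicle in Tgfb1 (12.5 CPM); Tgfb1 was then called against vehicle (adjusted p = 0.0156). Vehicle against sham gave 5 calls over all genes with DESeq2, 32 with limma voom, 5 with no filter, 16 in the 6-library fit and 1 without 3d-SN011. The cause was not tested.

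Some uncalled fold changes (log2) changed sign. For vehicle against sham with a library left out, Tgfb1 ranged from -0.26 to 0.098, Tgfb2 from -0.17 to 0.18, Tgfb3 from -0.11 to 0.15, Tgfbi from -0.21 to 0.073 and Tgfbr2 from -0.098 to 0.19; limma voom gave -0.14 for Tgfb3 and -0.17 for Tgfbr2. Ltbp1 in SN011 against sham ranged from -0.005 to 0.66, and Smad3 in SN011 against vehicle from -0.086 to 0.097. In 3d-SN011 against SN011, Smad7 ranged from -0.066 to 0.27 and Tgfb2 from -0.15 to 0.15, with -0.013 in the 6-library fit and -0.024 with limma voom.

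With the replicate number as a block (replicate block), SN011 against vehicle gave 19 calls over all genes, Tgfbr2 in vehicle against sham was -0.0028, and Smad7 passed in 3d-SN011 against sham (adjusted p = 0.0493). The correlation of same-numbered libraries' deviations was not above 0.1 for all 3 pairs in any comparison, so the numbers were not taken to pair libraries. With 3 libraries a group and as few as 47 counts for Ltbp1, small differences were not detectable, and an uncalled gene is not shown to be equal between groups.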
